A study of Mus musculus with 40 samples.

Results

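The genes described here carry out mitochondrial fatty acid oxidation and ketogenesis in mouse liver. They were chosen by gene name, and they were Cpt1a, Cpt2, Acadm, Acadl, Acadvl, Hadha, Hadhb, Etfdh and Bdh1, that is 9 of the 55487 genes in the count table. All 9 of 9 passed the filter on low counts, which left 20297 genes to test. As background, long-chain fatty acids enter mitochondria bound to carnitine, and inside the matrix acyl-CoA dehydrogenases and the trifunctional protein shorten them in repeated turns of beta-oxidation. The electrons leave through flavoproteins and NADH, and the liver turns much of the acetyl-CoA formed during fasting into ketone bodies that other tissues burn. NAMPT makes nicotinamide mononucleotide, from which cells make NAD, the electron acceptor of the hydroxyacyl-CoA step.

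RNA was sequenced from whole liver of female C57BL/6JBomTac mice after 3, 6, 12 or 21 days on a purified diet, which began at 9 weeks of age. The labels enter these days as age. The knockout group, named KO in the labels and HNKO in the paper, carried floxed Nampt alleles with Alb-Cre, and the WT group were floxed littermates. Alb-Cre was used to delete Nampt in hepatocytes, and whether it acted in other cells of the liver was not tested here. The source of the Nampt RNA that HNKO libraries still held was not tested either. The libraries were made from total RNA after removal of ribosomal RNA. For the time of day at sampling and for fasting before it, the study's description of this experiment gave no value.

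The comparisons used 38 libraries, with 5 HNKO and 5 WT at day 3, 5 HNKO and 4 WT at day 6, 6 HNKO and 5 WT at day 12, and 3 HNKO and 5 WT at day 21. The other 2 of the 40 deposited libraries, both HNKO at day 21, were described as failing quality control. Total counts per library ran from 16151037 to 64181492 with a median of 26466478.5. Values below are log2 CPM for each library, which carries the number the labels give it. Counts were scaled to each library total multiplied by its TMM normalization factor. These factors ran from 0.862 in WT library 15 to 1.24 in HNKO library 29. Fold changes are log2 values of HNKO against WT from edgeR's quasi-likelihood fit, and a gene was said to rise or fall where the p-value adjusted over all 20297 genes was under 0.05.

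Nampt itself was read first, as a check of the genotype labels. At day 3 the HNKO libraries held 5.14, 5.21, 5.31, 5.35 and 5.38 log2 CPM of Nampt, against 5.84, 6.06, 6.15, 6.32 and 6.57 in WT. All 19 of 19 HNKO libraries lay below every WT library of the same day and the same label series, the series being library numbers up to 21 and from 22 on. Across the series there was 1 crossing, at day 6, where HNKO library 7 (6.36) lay above WT libraries 27 (6.0) and 28 (5.99). The Nampt mean over the 4 days fell by 0.83 (95% confidence interval −1.08 to −0.58, edgeR adjusted p = 2.61e-06). From the earliest day to the latest, the Nampt change was −0.93, −0.90, −0.82 and −0.69, with edgeR adjusted p of 0.0193, 0.0128, 0.0208 and 0.161. The day 3 call on Nampt was lost without WT library 5, the day 6 call without WT library 8 or 10 or HNKO library 29, and the day 12 call without WT library 16 or HNKO library 35. In those fits the Nampt values lay between −0.47 and −0.82.

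The tissue label was checked with hepatocyte markers. All 12 of 12 were measured, none was at 0, and Alb was the most abundant at a mean of 82680.2 CPM. The summed CPM of these markers had a median of 163054 in WT and 121449 in HNKO at day 6. At days 3, 12 and 21 it was 163515, 152046 and 141900 in WT and 127574, 130548 and 117491 in HNKO. The 6 markers that fell over the 4 days included Alb. The 12 markers had a median change of −0.27 with 6 lower and 0 higher by edgeR (8 at an unadjusted p under 0.05 in either direction, 8 by DESeq2), and 1 was called higher without HNKO library 23 or 29. In bulk liver, fewer hepatocytes and less RNA per hepatocyte cannot be told apart.

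Taken as the mean over the 4 days, 8 of the 9 genes fell in HNKO liver and Cpt1a did not pass the test. The 8 were Cpt2, Acadm, Acadl, Acadvl, Hadha, Hadhb, Etfdh and Bdh1, while 17.3% of all tested genes fell and 19.2% rose in that comparison. Their decreases lay between 18.3% for Acadvl and 27.2% for Acadm. The median change of the 9 genes was −0.36, beside −0.01 over all tested genes. These 8 calls held in each of the 38 fits that left out 1 library. No member rose in any of the comparisons by edgeR, with 0 at an unadjusted p under 0.05 and 0 by DESeq2. Within a day and a label series, 60 of the 63 differences of the 9 genes were below 0, and 49.7% of those of all tested genes. The other 3 were of Cpt1a, and day 21 had no HNKO library in the first series. These are the same libraries as in the calls and no separate support for them.

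Single days gave fewer calls. At day 3, 1 member fell (Etfdh), beside 1.71% of all tested genes that fell and 2.95% that rose. The day 3 call was lost, leaving 0, without HNKO library 3 or 23 or WT library 5 or 24, where 0.449% to 0.887% of all tested genes fell. In contrast 3 members were called without WT library 1 or HNKO library 22, beside 1.84% and 3.27%. At that day 8 members were lower at an unadjusted p under 0.05, as were 9.35% of all tested genes. DESeq2 called 3 of them lower, Cpt2, Acadl and Etfdh, and 3.03% of all tested genes. With the label series as a covariate 4 were called, beside 2.32% of all tested genes that fell, and 0 in a fit of the day 3 libraries alone, beside 0.881%.

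Day 6 had the most calls. At day 6, 7 members fell, that is Cpt2, Acadm, Acadl, Acadvl, Hadha, Hadhb and Etfdh, beside 4.37% of all tested genes that fell and 8.42% that rose. The median change of the 9 genes was −0.52 at day 6, and −0.01 over all tested genes. In 7 members every HNKO library of day 6 lay below every WT library, as in 4.68% of all tested genes, and these were Acadm, Acadl, Acadvl, Hadha, Hadhb, Etfdh and Bdh1. HNKO library 29 was the lowest library of its group in each of the 9 genes, and without it 4 members were called, Acadm, Acadl, Hadha and Etfdh, beside 1.08% of all tested genes that fell. The call on Cpt2 was also lost without WT library 10 and in a fit of the day 6 libraries alone (6 members, beside 1.53%), and that on Acadvl without HNKO library 7 or WT library 27 or 28 and with no filter on low counts (6 members, beside 1.16%).

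At day 12, 2 members fell, Acadl and Etfdh, beside 3.27% of all tested genes that fell and 4.56% that rose. The changes kept about their size in every fit that left out 1 library of that day, from −0.41 to −0.29 for Acadl and from −0.45 to −0.33 for Etfdh, while the calls depended on single libraries: 0 members were called without HNKO library 13 or 35 or WT library 15 or 33, beside 1.37% to 2.36% of all tested genes that fell, and Etfdh alone without HNKO library 11 or 12 or WT library 14 or 16, beside 2.12% to 3.04%. Without WT library 34 there were 3 calls, beside 2.49%, and without HNKO library 32 there were 4, beside 3.38%. DESeq2 called 3, Acadm, Acadl and Etfdh, beside 4.28%. A score of clock genes ran from −2.96 to 3.46 over the WT libraries of that day, with a median of −1.93. Over the HNKO libraries it ran from −1.31 to 2.37, with a median of 0.83. WT library 16 had the highest score, and the other WT libraries lay below every HNKO library. With this score as a covariate 6 members were called, beside 9.07% of all tested genes that fell, and the median change of the 9 genes was −0.46. With the libraries that failed quality control added, 0 members were called, beside 1.28% of all tested genes that fell.

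At day 21, 0 members fell by edgeR, with 4 lower at an unadjusted p under 0.05 and 1, Acadl, by DESeq2. Of all tested genes 0.916% fell and 2.21% rose by edgeR, 7.63% were lower at an unadjusted p under 0.05, and DESeq2 called 1.59% lower. That comparison had 3 HNKO libraries, and the number of all genes called there went from 634 to 13 without HNKO library 37. On days 3, 12 and 21 the median change of the 9 genes was −0.35, −0.28 and −0.27, against medians of 0.01, 0.00 and −0.01 over all tested genes. Without HNKO library 37 the day 21 median of the 9 genes was −0.093.

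Whether the change differed between days was tested by the interaction of genotype and day. It called 0 members and 0% of all tested genes by edgeR, with 0 members and 966 genes at an unadjusted p under 0.05, and DESeq2 called 18 genes and 0 members. Leaving out HNKO library 3, 7, 11, 22, 32 or 35 gave between 1 and 3 genes. The lowest unadjusted p of a member was 0.176, for Etfdh, with an edgeR adjusted p of 0.9998. The larger number of calls at day 6 is therefore not shown to be a larger change at that day.

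**Figure D1:**
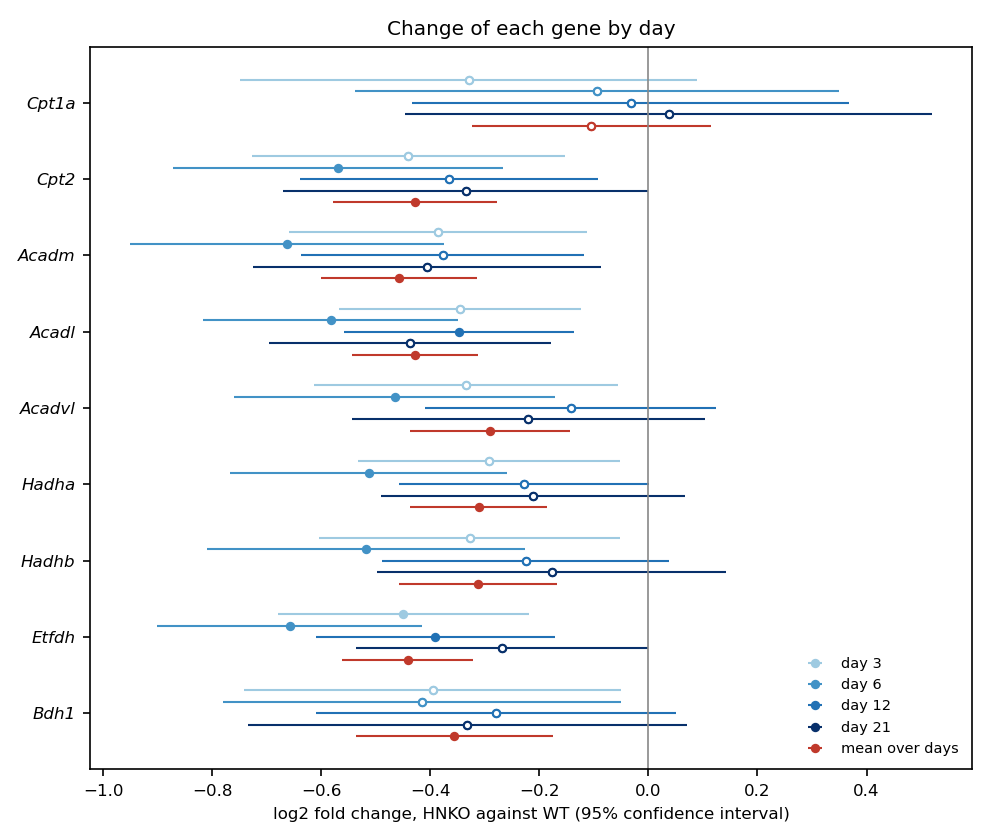
Change of each gene in HNKO against WT, as log2 fold change (horizontal axis) with 95% confidence interval, for each day and for the mean over days. Filled circles passed an edgeR adjusted p of 0.05 and open circles did not. Of the 36 values for single days, 35 lie below 0, and the exception is Cpt1a at day 21.

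In the carnitine shuttle, 1 of the 2 genes passed the test. Cpt1a encodes the liver form of carnitine palmitoyltransferase of the outer membrane, the step that malonyl-CoA inhibits, and Cpt2 encodes the enzyme of the inner membrane that hands the acyl group back to coenzyme A. At day 6 Cpt1a stood at 8.72, 9.0, 9.10, 9.30 and 9.74 log2 CPM in HNKO and at 8.93, 8.94, 9.53 and 9.68 in WT. The HNKO and WT libraries of Cpt1a were mixed at each of the 4 days, and the highest HNKO library of day 6 lay above every WT library. The Cpt1a mean over days differed by −0.11 (95% confidence interval −0.32 to 0.11, edgeR adjusted p = 0.481), and values down to −0.32 lay within the interval. By day, the Cpt1a change was −0.33, −0.09, −0.03 and 0.04. None of these was called, and the values moved with the choices made: the day 3 value was −0.17 and the day 12 value −0.26 with the clock score as a covariate, and the mean over days was −0.067 with the label series as a covariate and ran from −0.15 to −0.057 over the fits that left out 1 library, with the values nearest 0 without WT library 10 or 16 or HNKO library 29 or 37.

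At day 6 Cpt2 stood at 5.79, 5.99, 6.07, 6.33 and 6.53 in HNKO and at 6.53, 6.58, 6.77 and 7.01 in WT. HNKO library 7 was the 1 knockout library of that day that reached the WT range. The Cpt2 mean over days fell by 0.43 (95% confidence interval −0.58 to −0.28, edgeR adjusted p = 2.78e-05), a decrease of 25.7%. Whether the change of Cpt2 differed from that of Cpt1a was not tested.

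The acyl-CoA dehydrogenases take the first electrons from the fatty acid, each for its range of chain lengths: Acadvl for very long, Acadl for long and Acadm for medium chains. Acadm stood at 7.25, 7.38, 7.41, 7.67 and 7.80 log2 CPM in HNKO at day 6 and at 7.92, 7.94, 8.37 and 8.41 in WT. At day 21 the 3 HNKO libraries held 7.36, 7.67 and 7.72, and the WT libraries 7.75, 7.91, 7.98, 8.09 and 8.22. The groups did not overlap at either day, as in 4.68% of all tested genes that were lower at day 6 and 6.7% at day 21. The Acadm mean over days fell by 0.46 (95% confidence interval −0.60 to −0.32, edgeR adjusted p = 5.29e-06), the largest estimate among the 9 genes, though its interval overlapped those of the other 7 that fell. The exact permutation test of Acadm, two-sided, gave p = 0.0159, 0.0159, 0.0260 and 0.0357 from the earliest day to the latest.

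Acadl was the 1 member called between days on diet, a share of the 9 near that of all tested genes. At day 3 it stood at 6.58, 6.66, 6.67, 6.72 and 6.90 in HNKO and at 6.85, 6.95, 6.99, 7.19 and 7.26 in WT. At day 21 it stood at 6.80, 7.16 and 7.21 in HNKO and at 7.39, 7.47, 7.48, 7.52 and 7.64 in WT. The group mean of Acadl was higher at day 21 than at day 3 in both genotypes. The Acadl groups overlapped at days 3 and 12 and did not at days 6 and 21. Of all tested genes, 4.68% and 6.7% were lower without overlap at days 6 and 21. The Acadl mean over days fell by 0.43 (95% confidence interval −0.54 to −0.31, edgeR adjusted p = 6.12e-07). A difference among the 4 days was called for 1 member, Acadl, in WT (edgeR adjusted p = 0.0257), beside 5.84% of all tested genes, and the call was lost without WT library 1, 25, 26 or 39. Among HNKO libraries the same test called 1 member, Acadl (edgeR adjusted p = 0.0114), beside 7.9% of all tested genes. There 2 members, Acadl and Hadhb, had an unadjusted p under 0.05, as did 4646 of the 20297 tested genes, a similar share.

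Acadvl had the smallest estimate of the 8. At day 6 it stood at 7.06, 7.17, 7.22, 7.40 and 7.42 in HNKO and at 7.62, 7.63, 7.81 and 7.84 in WT, with no overlap. At day 12 the 6 HNKO libraries ran from 7.04 to 7.70 with a median of 7.30, across the whole WT range of 7.35 to 7.68. The Acadvl mean over days fell by 0.29 (95% confidence interval −0.44 to −0.14, edgeR adjusted p = 0.0017). Its exons shared 1151 bases, 42.9% of their length, with Dvl2 on the opposite strand, and whether strand was used in counting was not stated. Dvl2 was assigned a mean of 214 counts per library and Acadvl 5018.

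Hadha and Hadhb encode the alpha and beta subunits of the trifunctional protein, which hydrates, oxidises and cleaves long-chain acyl groups at the inner membrane. Hadha at day 6 stood at 7.79, 8.01, 8.04, 8.31 and 8.32 log2 CPM in HNKO and at 8.51, 8.55, 8.65 and 8.76 in WT. Hadhb at day 6 stood at 5.91, 6.22, 6.23, 6.23 and 6.26 in HNKO and at 6.62, 6.66, 6.71 and 6.78 in WT. Neither subunit's groups overlapped at that day, and both overlapped at the other 3 days. The Hadha mean over days fell by 0.31 (95% confidence interval −0.44 to −0.19, edgeR adjusted p = 1.58e-04). The Hadhb mean over days fell by 0.31 as well (95% confidence interval −0.46 to −0.17, edgeR adjusted p = 7.43e-04). The pair of genes lie head to head on chromosome 5 of GRCm38, Hadha at 30118304 to 30155162 on the minus strand and Hadhb at 30155248 to 30184593 on the plus strand. Of the 51-base stretches of Hadhb exons, 19.6% also occurred in exons of other genes, so the origin of a read from these stretches may be uncertain. That share was 4.41% for Etfdh and under 2% for the other members but Acadvl (26.6%) and Bdh1 (11%). In those 2 the other gene, Dvl2 or Gm15743, lay at the same place on the opposite strand, so that the gene a read is assigned to, and not its position, depends on strand.

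Etfdh encodes the membrane enzyme that passes electrons from the electron transfer flavoprotein to ubiquinone, and it is the member called at the most single days. At day 3 Etfdh stood at 7.68, 7.69, 7.81, 7.88 and 7.90 log2 CPM in HNKO and at 8.0, 8.09, 8.15, 8.37 and 8.54 in WT. At day 6 it stood at 7.37, 7.56, 7.66, 7.84 and 7.89 in HNKO and at 8.23, 8.23, 8.41 and 8.46 in WT. The groups did not overlap at either of these days, as in 1.8% and 4.68% of all tested genes that were lower there. By day, the Etfdh change was −0.45, −0.66, −0.39 and −0.27, with edgeR adjusted p of 0.0200, 4.73e-04, 0.0236 and 0.274. The uncalled day 21 value was −0.093 without HNKO library 37. Over the 4 days Etfdh fell by 0.44 (95% confidence interval −0.56 to −0.32, edgeR adjusted p = 6.8e-07). The exact permutation test reached the smallest p it can give at day 3 (0.00794) and at day 6 (0.00794), and it gave 0.00649 at day 12 and 0.125 at day 21 for Etfdh.

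Bdh1 encodes the NAD-dependent enzyme that interconverts acetoacetate and beta-hydroxybutyrate. At day 6 Bdh1 stood at 7.45, 7.94, 8.12, 8.13 and 8.15 log2 CPM in HNKO and at 8.19, 8.27, 8.38 and 8.70 in WT. The groups were separate at that day and overlapped at the others, and at day 12 HNKO library 32 (8.58) lay above 4 of the 5 WT libraries. The Bdh1 mean over days fell by 0.36 (95% confidence interval −0.54 to −0.17, edgeR adjusted p = 0.0019), a decrease of 21.9%, while no single day passed the test. With the clock score as a covariate Bdh1 was called at days 6 and 12, with changes of −0.43 and −0.48.

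**Figure D2:**
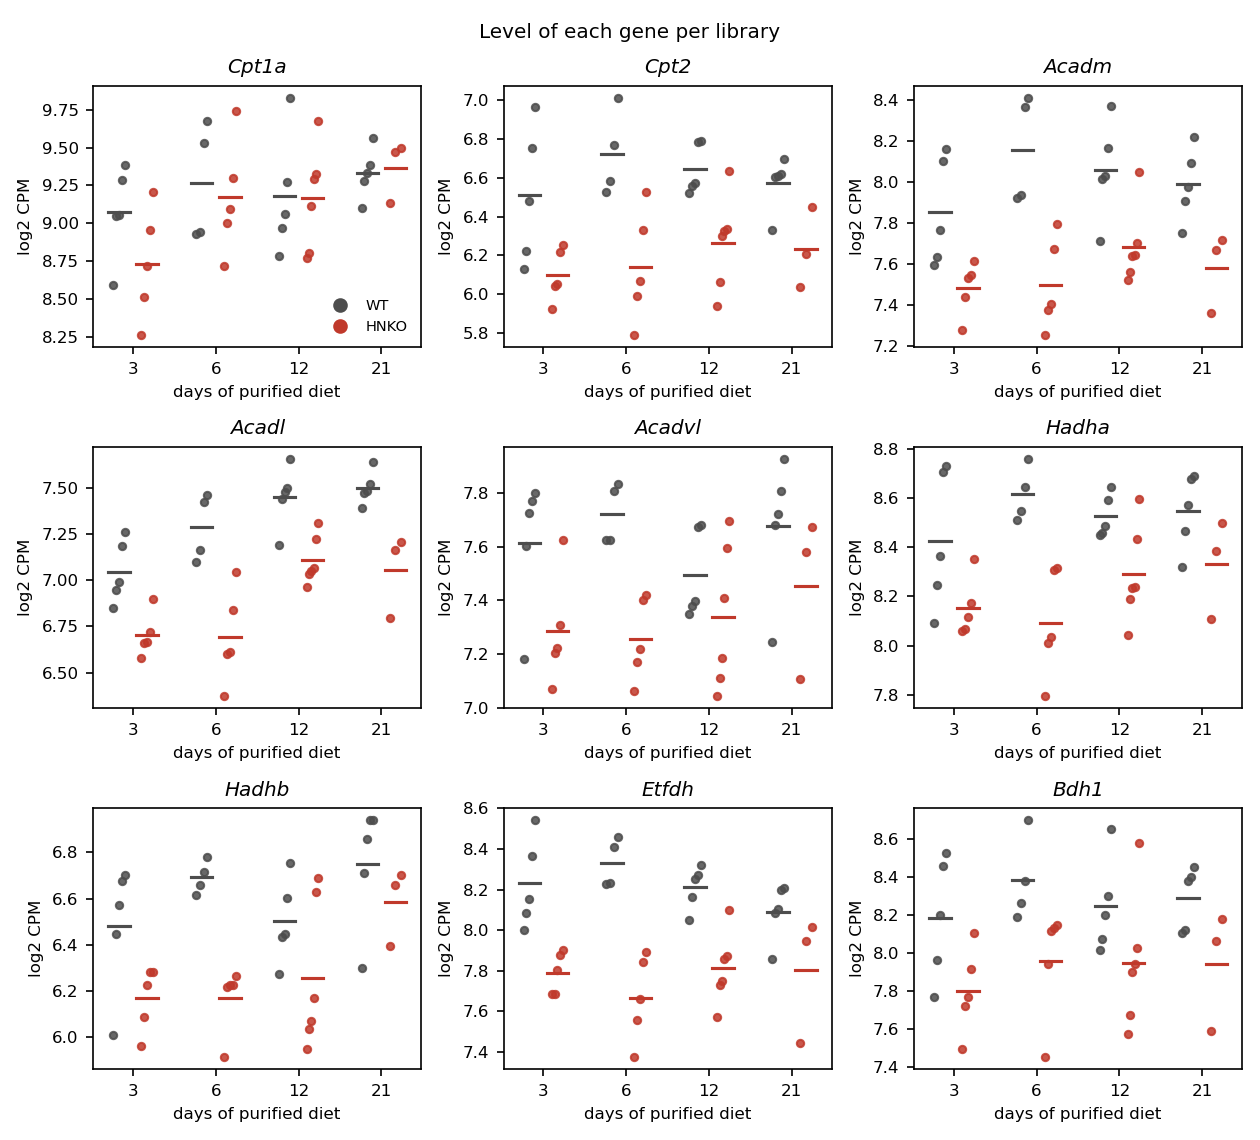
Level of each gene in every library (vertical axes, log2 CPM) by days of purified diet (horizontal axes), WT in grey and HNKO in red, with a bar at each group mean. At day 6 the groups are separate in all panels but those of Cpt1a and Cpt2.

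The exact permutation test of single members, two-sided, gave an unadjusted p under 0.05 in 20 of 36 combinations of member and day, each with the lower mean in HNKO. From the earliest day to the latest there were 4, 8, 5 and 3 of the 9 members, beside 7.3%, 9.2%, 9.57% and 7.38% of all tested genes that were lower by the same test. The smallest p possible was 0.00794 at days 3 and 6, 0.00216 at day 12 and 0.0179 at day 21. Adjusted over all tested genes of a day, an adjustment chosen after seeing the data, 0 of the 36 passed, and 0 genes did at any day. In groups of this size the smallest p possible limits what can pass over 20297 genes. No conclusion on the members is therefore drawn from that adjustment.

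Levels can be compared between genes only per length. Per kilobase of exon, WT livers held 80.8 CPM ± 12.6 (SD, n = 19) of Acadl, 80.5 ± 13.2 of Bdh1, 79.4 ± 17.5 of Cpt1a, 74.1 ± 10.4 of Acadvl and 66.7 ± 11.3 of Acadm. The same level was 42.5 ± 5.0 for Hadha, 41.2 ± 6.26 for Cpt2, 39.7 ± 4.60 for Etfdh and 14.9 ± 2.33 for Hadhb. Neighbours within the first 5 and within the next 3 did not differ beyond their spread, whereas Hadhb stood apart at the bottom. The exon length counts every annotated transcript, including rarely used ones, so it can understate a gene's level.

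On GRCm38 the members lay on 7 chromosomes, and Hadha with Hadhb was the pair that lay side by side. The annotation placed Cpt1a (ENSMUSG00000024900) at chromosome 19, 3322334 to 3385733, and Cpt2 (ENSMUSG00000028607) at chromosome 4, 107903981 to 107923610. It placed Acadm (ENSMUSG00000062908) at chromosome 3, 153922357 to 153944632, Acadl (ENSMUSG00000026003) at chromosome 1, 66830839 to 66863277, and Acadvl (ENSMUSG00000018574) at chromosome 11, 70010183 to 70015411. The trifunctional subunits had the identifiers ENSMUSG00000025745 and ENSMUSG00000059447. The annotation placed Etfdh (ENSMUSG00000027809) at chromosome 3, 79603788 to 79629500, and Bdh1 (ENSMUSG00000046598) at chromosome 16, 31422280 to 31458901.

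Among mice of the same group, most pairs of the 9 genes varied together. Deviations from the group means over the 38 libraries gave Pearson r between 0.12 and 0.89 over 36 pairs, with a median of 0.71. Spearman's rho ran from 0.10 to 0.92 with a median of 0.68. By permutation within groups, 29 of the 36 pairs had a Benjamini-Hochberg adjusted p under 0.05 for r and 26 for rho. The median r was 0.66 without the 2 libraries farthest from the median of the first gene of each pair, 0.68 within the first label series (18 libraries) and 0.72 within the second (20 libraries). Over all pairs of the 20297 tested genes the median r was 0, and 7.15% of pairs reached 0.385, the lowest r among the 29. Over the 1684 genes with a mean log2 CPM at or above that of Cpt2, the lowest member, the median r was 0.139, 25.2% of pairs reached 0.385 and 3.12% reached the 0.71 that was the members' median.

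Some pairs were closer than others, given here as a description. Acadm and Acadl had the highest r, 0.89, with a rho of 0.92, both at the smallest permutation p possible of 1e-05. Acadvl and Hadhb had an r of 0.87 and a rho of 0.85, at the same permutation p of 1e-05. Their 14 pairs with the other 7 members had a median r of 0.37, but of 0.73 once the means of each group and label series were removed, a step chosen after seeing the data. For Cpt1a, the r with Acadvl was 0.12 (permutation p = 0.499) and 0.36 after that step (permutation p = 0.093), and the r with Hadhb was 0.26 (permutation p = 0.13) and 0.45 (permutation p = 0.0681). The 21 pairs without Acadvl and Hadhb had a median r of 0.78 and, after that step, 0.77. The subunits Hadha and Hadhb had an r of 0.62 and a rho of 0.48, with permutation p of 3.8e-04 and 0.00784, and the r within the label series was 0.77 and 0.78. Cpt1a, which did not pass the test between genotypes, still had an r of 0.84 with Bdh1 and 0.78 with Acadm.

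**Figure D3:**
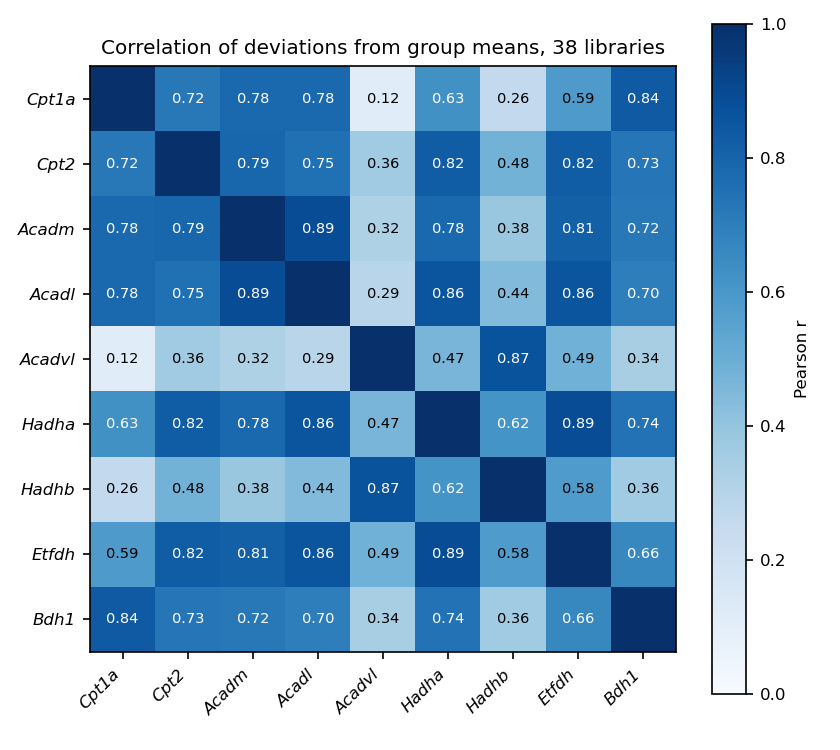
Pearson r between each pair of genes, from deviations of log2 CPM from the group means over 38 libraries (colour scale from 0 to 1). Acadvl and Hadhb are paler against the other genes than the rest, which was less so once the means of each group and label series were removed (median r of 0.73), and their own pair has 0.87.

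Outside the 9 genes, the profile most like their mean deviation, of 12590 genes ranked over the 38 libraries, was that of Slc25a20 (r = 0.94), the carnitine-acylcarnitine carrier that links the steps of Cpt1a and Cpt2. Next came Acad11 (0.93), Eci2 (0.92), Decr2 (0.90) and Creb3l3 (0.88), a description with no test. In the comparison of genotypes Slc25a20 fell by 0.44 (edgeR adjusted p = 2.5e-04), Eci2 by 0.47 (edgeR adjusted p = 9.31e-04) and Decr2 by 0.44 (edgeR adjusted p = 1.86e-05) as the mean over days. Creb3l3 had a change of −0.24 (edgeR adjusted p = 0.0472), a call that was lost in 23 of the 38 fits that left out 1 library, where the value ran up to −0.19.

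The rest of the pathway was read from lists of genes, each as the mean over days. Of 15 genes for uptake, activation and entry of fatty acids, 10 fell and 0 rose, with a median of −0.38. Acsl1, which activates long-chain fatty acids, fell by 0.76 (edgeR adjusted p = 2.24e-07), and Mlycd, which removes malonyl-CoA, fell by 0.28 (edgeR adjusted p = 9.53e-05). The fatty acid transport proteins Slc27a5 and Slc27a2 fell by 0.49 and 0.56 (edgeR adjusted p = 1.8e-04 and 2.38e-04). Of 14 other genes listed under mitochondrial acyl-CoA oxidation, 13 fell and 0 rose, with a median of −0.38. That list was made by gene name, and where in the cell each product acts was not checked. Hadh, the short-chain hydroxyacyl-CoA dehydrogenase, fell by 0.43 (edgeR adjusted p = 8.48e-07), Eci1 by 0.54 (edgeR adjusted p = 1.55e-06), Acad11 by 0.42 (edgeR adjusted p = 2.36e-05) and Hsd17b10 by 0.42 (edgeR adjusted p = 4.8e-05). Both subunits of the electron transfer flavoprotein fell, Etfa by 0.35 and Etfb by 0.43 (edgeR adjusted p = 0.00142 and 0.00352).

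Genes of ketone body metabolism went both ways. Of 9, 5 fell and 2 rose, with a median of −0.36. Slc16a7, a monocarboxylate transporter, fell by 0.52 (edgeR adjusted p = 4.06e-07). Oxct1, the enzyme of ketone body use that hepatocytes largely lack, rose by 0.66 (edgeR adjusted p = 4.07e-05). Slc16a6, of the same transporter family as Slc16a7, rose by 0.45 (edgeR adjusted p = 4.48e-04).

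Regulators and neighbouring pathways were counted in the same way. Of 12 regulators 7 fell and 0 rose, with a median of −0.22, and the count was 4 without WT library 8, 10 or 16 or HNKO library 23, 29, 30, 35, 37 or 40. The nuclear receptor gene Ppara fell by 0.33 (edgeR adjusted p = 0.00603) and its coactivator gene Ppargc1a by 0.35 (edgeR adjusted p = 0.00392). The NAD-dependent deacylase genes Sirt3 and Sirt1 fell by 0.36 and 0.20 (edgeR adjusted p = 3.48e-05 and 7.44e-04). Of 12 known targets of PPARA 11 fell and 0 rose, with a median of −0.67. Among these targets Cyp4a14 fell by 2.04, Cyp4a10 by 1.68, Vnn1 by 1.04 and Ehhadh by 0.91 (edgeR adjusted p = 4.23e-06, 4.17e-06, 2.67e-06 and 1.89e-08). Of 21 genes of peroxisomal oxidation, 2 of which are also among the targets, 18 fell and 0 rose, with a median of −0.44. The peroxisomal thiolase gene Acaa1b fell by 1.22, the transporter gene Abcd3 by 0.68 and Pex11a by 0.81 (edgeR adjusted p = 1.68e-09, 4.14e-08 and 2.34e-07).

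Of 18 genes of the citric acid cycle 16 fell and 0 rose, with a median of −0.29. Sdha fell by 0.42, Idh3b by 0.40, Dld by 0.39 and Dlst by 0.27 (edgeR adjusted p = 4.7e-08, 3.73e-07, 2.61e-07 and 6.81e-06). Genes that respond to fasting and feeding gave 0 of 8 called by edgeR, 0 at an unadjusted p under 0.05 and 0 by DESeq2. The same counts were 0 for the 5 clock genes of the day phase and for the 3 of the opposite phase. These counts are for the mean over days, in which shifts of opposite sign cancel. By day, the median change was −0.76, −0.29, 0.41 and −0.34 for the day phase and 0.06, −0.42, −1.04 and 0.15 for the opposite phase. For the fasting and feeding genes it was 0.02, −0.48, −0.24 and −0.16. At each day edgeR called 0 genes of these lists. In each pathway list where 0 genes rose by edgeR, 0 were higher at an unadjusted p under 0.05 and 0 were called higher by DESeq2.

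Markers of other cell types moved in the same libraries. Of 8 cholangiocyte markers 7 rose over the 4 days, with a median of 1.62, and their summed CPM at day 6 had a median of 49.2 in WT and 283 in HNKO. At days 3, 12 and 21 the medians of that sum were 53.1, 53.9 and 53.4 in WT and 300, 179 and 236 in HNKO. Spp1 was the most abundant of them. Of 8 stellate cell markers, led by Dcn, 7 rose with a median of 1.04, and their median sum at day 6 was 334 in WT and 706 in HNKO, and at days 3, 12 and 21 it was 391, 335 and 323 in WT and 565, 495 and 631 in HNKO. Of 8 macrophage markers, led by Clec4f, 6 rose with a median of 0.69, and their median sum at day 6 was 414 in WT and 643 in HNKO. At day 3 the macrophage sums were near each other, 440 in WT and 447 in HNKO. At that day 1 of these markers was called and at day 6 there were 5, beside 2.95% and 8.42% of all tested genes that rose. At days 12 and 21 the sums were 274 and 355 in WT and 388 and 435 in HNKO. At each of them 2 markers were called, beside 4.56% and 2.21% of all tested genes that rose. The interaction of genotype and day called 0 of the 8 macrophage markers. All 3 neutrophil markers tested, of 5, rose with a median of 1.77, and the most abundant, S100a9, had a mean of 1.82 CPM.

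Of 7 endothelial markers, led by Stab2, 1 fell and 1 rose. The number that rose was 2 without HNKO library 23, 30, 31, 35 or 40. Of 8 lymphocyte markers 0 were called by edgeR, with 1 at an unadjusted p under 0.05 and 0 by DESeq2. Without WT library 10, 16, 21, 25, 26, 34 or 39 or HNKO library 35, 36 or 38, 1 or 2 of them were called. Adipocyte markers, led by Cidec, gave 0 of 3 tested by edgeR, 0 at an unadjusted p under 0.05 and 0 by DESeq2. No marker of these lists was at 0 in all libraries.

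The lowest library in hepatocyte marker sum at day 6 was HNKO library 29 (85359.6 CPM), the same library that was lowest in the 9 genes at that day. At day 3 it was HNKO library 23 (97100.2 CPM), which was the lowest of its group in Etfdh and in no other member. At day 12 it was HNKO library 13 (123571 CPM), the lowest of its group in Acadvl and Hadhb. Library 35 of that group was lowest in Cpt2, Acadm, Acadl, Hadha, Etfdh and Bdh1, and library 36 in Cpt1a. At day 21 it was HNKO library 37 (104944 CPM), the lowest of its group in each of the 9 genes. The part of these marker shifts in the changes of the 9 genes was not tested.

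Because 8 of the members fell, the start regions of 4 are printed, chosen after their values were seen. They are Hadhb for the window it shares with Hadha, Etfdh as the member called at the most single days, Acadm as the one with the largest estimate, and Cpt1a as the one that did not pass the test. Promoter windows of 300 bases from RefSeq on GRCm38.p6, from 250 before to 50 after the start, were found for all 9 genes, Bdh1 with 2 windows. The windows of Hadha and Hadhb share 228 bases on opposite strands, so the line for Hadhb covers most of both. Capitals mark the letters GGGCGG, the core of sites for Sp1, as well as the nuclear receptor core AGGTCA and the box CCAAT, each on either strand. The sequences run 5′ to 3′ in the direction of the gene.
Hadhb (chr5:30155003-30155302, plus strand): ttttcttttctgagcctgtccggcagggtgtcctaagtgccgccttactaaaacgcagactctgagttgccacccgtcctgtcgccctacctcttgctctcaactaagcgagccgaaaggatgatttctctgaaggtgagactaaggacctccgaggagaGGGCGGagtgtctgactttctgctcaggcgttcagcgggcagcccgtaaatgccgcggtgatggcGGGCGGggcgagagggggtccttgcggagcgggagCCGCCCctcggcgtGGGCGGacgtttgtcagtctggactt
Etfdh (chr3:79628718-79629017, minus strand): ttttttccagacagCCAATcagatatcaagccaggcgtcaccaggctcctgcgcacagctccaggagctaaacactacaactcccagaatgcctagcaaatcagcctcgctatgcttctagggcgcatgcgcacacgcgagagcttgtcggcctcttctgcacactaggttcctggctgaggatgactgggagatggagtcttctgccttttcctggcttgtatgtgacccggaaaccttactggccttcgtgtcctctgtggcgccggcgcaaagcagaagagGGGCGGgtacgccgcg
Acadm (chr3:153944594-153944893, minus strand): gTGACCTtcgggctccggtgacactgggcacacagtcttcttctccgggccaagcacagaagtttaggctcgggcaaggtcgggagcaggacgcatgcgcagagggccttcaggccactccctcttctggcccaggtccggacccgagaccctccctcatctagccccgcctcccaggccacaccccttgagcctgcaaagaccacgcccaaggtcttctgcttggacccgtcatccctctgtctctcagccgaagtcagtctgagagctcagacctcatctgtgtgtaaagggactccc
Cpt1a (chr19:3323051-3323350, plus strand): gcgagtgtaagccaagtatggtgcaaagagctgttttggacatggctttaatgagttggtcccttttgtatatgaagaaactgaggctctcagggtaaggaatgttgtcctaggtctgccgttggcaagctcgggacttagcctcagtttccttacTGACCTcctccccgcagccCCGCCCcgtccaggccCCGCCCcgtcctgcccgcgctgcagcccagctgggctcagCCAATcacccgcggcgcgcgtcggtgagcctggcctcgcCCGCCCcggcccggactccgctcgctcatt

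GGGCGG stood in 7 of the 10 member windows and in 35.7% of all 32851 promoter windows of that length. The match of Hadha is also 1 of those of Hadhb, since their windows overlap, and Bdh1 held the letters in 1 of its 2 windows. AGGTCA stood in 3 of the 10 (Acadm, Acadvl and Cpt1a) and in 16.3% of all windows, and CCAAT in 2 (Etfdh and Cpt1a) and in 37.4%. A direct repeat of AGGTCA, the copies 1 base apart and with at most 2 mismatches, was in 0 of the 10 and in 3.86% of all windows. The letters TCAAGGTCA, TGACGTCA, TATAAA and CACGTG, also searched on both strands, were in 0 of the 10 and in 0.423%, 1.79%, 13.6% and 7.15% of windows, and TCAAGGTCA contains AGGTCA. A match describes letters in this window and not a bound site, and sites outside the window were not searched.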

How the data were processed

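The authors aligned paired-end reads of the 40 liver libraries to GRCm38 with STAR 2.7.2b and counted fragments per gene with featureCounts 1.6.4. The deposited values are raw counts, and 0 columns were without a matching sample. Libraries were grouped by genotype and day from the labels, without the 2 libraries described as failing quality control.

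Counts were tested in R 4.3.3 with edgeR 4.0.16, using TMM normalization, filterByExpr (minimum count 10, minimum total 15, proportion 0.7) and quasi-likelihood F tests, adjusted by Benjamini-Hochberg over 20297 genes at 0.05. The filter kept 99.9% of counts. Contrasts were HNKO against WT at each day, their mean with equal weights, the interaction, and days within a genotype. log2 CPM used a prior count of 2. Single members were compared by exact permutation of means. A planned adjustment of these p-values over the 36 tests is not used, a change made after they were seen, and they were adjusted over all tested genes instead. Member pairs were correlated after removal of group means, with 100000 permutations within groups.

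Alternatives were DESeq2 1.42.0, its size factors in edgeR, no filter or a stricter one, all 40 libraries, each day alone, the edgeR 4 computation, covariates for label series and clock score, and each library left out in turn. Running these on the gene lists and on genes named outside the members, the member medians under these alternatives, adjusting exact tests over all genes, and removing means of group and label series from correlations were chosen after seeing the data. Code for the count tests was checked on simulated data, and the permutation code was not. Besides Nampt and every member, the text names from each list at most 4 genes with the smallest p for the mean over days among those called there or at 2 or more days, genes called against the direction of most of their list, the most abundant cell type markers, and the 5 genes most correlated with the members. Some genes that fit these rules are withheld and not reported here. The members and lists were chosen with earlier results of these data known. Protein levels and fluxes were not analysed here. The annotation used for exon lengths and positions was GENCODE M21, whereas the authors counted on M22.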

Additional observations from a re-analysis of the deposited data

Results flagged for a closer look

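In 4 of 70 groups tested, 1 library lay far from the others of its group, and chance gives about 1 in 20 groups. Cpt2 in WT library 41 of day 21 was low at 6.329 log2 CPM. Acadm in HNKO library 32 of day 12 was high at 8.05. Hadhb in HNKO library 29 of day 6 was low at 5.914. Nampt in WT library 16 of day 12 was high at 7.243. Among the libraries that failed quality control, HNKO library 17 of day 21 held 7.147 log2 CPM of Hadhb on the scale of all 40 libraries, above the highest WT library of that day (6.96) on the same scale.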

How the results depend on the processing

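As the mean over days, the same 8 members were called in all 8 settings tried and in each of the 38 fits without 1 library, and the number of all genes called ran from 5527 to 8072. Calls at single days depended on the setting, and the cause was not tested. With DESeq2, day 3 had 1428 genes and 3 members, and day 12 had 3 members, beside 3.03% and 4.28% of all tested genes that fell. In that setting day 21 had 994 genes and 1 member, beside 1.59% that fell. The interaction had 18 genes there, and the day effect in WT 1900. With all 40 libraries, day 3 had 331 genes, day 6 had 1321 and the day effect in WT 581. Day 12 had 624 genes and 0 members there, and day 21 had 1350 genes and 1 member. Of all tested genes 1.28% and 2.22% fell at those 2 days. Cpt1a at day 21 turned to −0.015 with all 40 libraries, uncalled. With each day fitted alone, and so fewer samples, day 3 had 420 genes and 0 members, day 6 had 1325 genes and 6 members, and day 12 had 867 genes and 1 member. In these fits 0.881%, 1.53% and 1.77% of all tested genes fell. Without a filter beyond 1 count, day 6 had 6 members and day 12 had 1, beside 1.16% and 0.914% of all tested genes that fell. With the edgeR 4 computation, day 21 had 1 member, beside 1.1% of all tested genes that fell. With the label series as a covariate, day 3 had 4 members, beside 2.32% of all tested genes that fell, and the day effect in WT 2224 genes. With the clock score as a covariate, day 6 had 8 members, beside 6.33% of all tested genes that fell. In that setting day 12 had 3861 genes and 6 members, and day 21 had 2 members, beside 9.07% and 1.76% that fell. The day effects there were 3148 genes in WT and 3308 in HNKO.

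Leaving out 1 library gave 322 to 1668 genes and 0 to 3 members at day 3, 1126 to 3027 genes and 4 to 7 members at day 6, 852 to 1750 genes and 0 to 4 members at day 12, 13 to 718 genes and 0 members at day 21, and 0 to 3 genes for the interaction. The share of all tested genes that fell ran from 0.449% to 3.27% at day 3 and from 1.08% to 5.24% at day 6. At day 12 it ran from 1.37% to 3.38%, and at day 21 from 0.00482% to 0.898%. The uncalled Cpt1a value ran from −0.26 to 0.053 at day 6, from −0.15 to 0.17 at day 12 and from −0.0085 to 0.16 at day 21. Fewer libraries per group are part of each of these fits. The exact tests of members, 20 at an unadjusted p under 0.05, gave 0 when adjusted over all tested genes, and the median r of the member pairs, 0.71, was 0.76 with means of group and label series removed, both chosen after seeing the data. The 0 is limited by the smallest p that these group sizes allow, so no conclusion on the members is drawn from it.

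For the lists, run in this way after seeing the data, 4 regulators fell with no filter or with the label series as a covariate, and 4 to 8 without 1 library. The label series gave 1 hepatocyte marker that rose, and leaving out a library 0 to 1. With at least 10 counts in every library, fewer genes were tested, and 3 cholangiocyte and 0 neutrophil markers rose. Endothelial markers that rose were 2 under that filter, with all 40 libraries and with the label series, and 1 to 2 without 1 library. Lymphocyte markers that rose were 0 to 2 without 1 library. With the clock score as a covariate, 1 clock gene of each phase fell. No paired analysis was possible because each mouse gave 1 library.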
